A study of Mus musculus with 24 samples.

Results

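Fc receptors bind the constant part of antibodies. The 6 genes described here are those of the deposited table whose symbol is Fcgr1, Fcgr2b, Fcgr3, Fcgr4, Fcer1g or Fcgrt, which is 6 of 14912 genes in all, and the list was drawn up by name and function. They were measured by RNA sequencing of the left ventricle in 24 wild-type mice, which the study's methods give as male C57BL/6J. In the hypertensive-LVH group (left ventricular hypertrophy, n = 12), angiotensin II (ANG II), a peptide that raises blood pressure, was given at 1500 ng/kg/min for 7 days by osmotic mini-pumps placed under the skin. The control group (n = 12) received saline for 7 days. The hearts of both groups were flushed with saline, and no gene was deleted in either group. Whole ventricular tissue was sequenced, so that a lower number of cells of a type and less RNA per cell cannot be told apart.

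Fcgr1, Fcgr2b, Fcgr3 and Fcgr4 encode the receptors for IgG (Fcγ receptors) of the mouse, which let macrophages, monocytes and neutrophils take up antibody-coated particles. Fcgr1, Fcgr3 and Fcgr4 are activating receptors that signal through the common γ chain encoded by Fcer1g, and Fcgr2b is the inhibitory receptor that opposes them. Fcgrt encodes the heavy chain of FcRn, which pairs with β2-microglobulin, recycles IgG and albumin in endothelial cells and macrophages, and does not use the γ chain.

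The signalling motifs of the activating and the inhibitory arm are shown first. The γ chain carries an immunoreceptor tyrosine-based activation motif (ITAM), and the cytoplasmic tail of Fcgr2b carries the inhibitory counterpart (ITIM). Both stretches are shown 5′ to 3′ from GENCODE vM21 transcripts, with the tyrosine codons in capitals. The ITAM lies at bases 193 to 237 of the 261 coding bases of the first listed transcript of Fcer1g, and the ITIM lies at bases 949 to 966 of the 1023 coding bases of the first listed transcript of Fcgr2b. The ITAM pattern was found in 1 of the 6 members, Fcer1g.
Fcer1g ITAM: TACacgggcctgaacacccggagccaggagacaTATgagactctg
Fcgr2b ITIM: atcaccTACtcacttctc

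Fcgr2b, Fcgr4, Fcgr3 and Fcer1g lie together on chromosome 1 (GRCm38, GENCODE vM21). In this order along the chromosome they are Fcgr2b (ENSMUSG00000026656.15, chr1:170958617-170976547, minus strand), Fcgr4 (ENSMUSG00000059089.4, chr1:171018920-171029761, plus strand), Fcgr3 (ENSMUSG00000059498.13, chr1:171051174-171064935, minus strand) and Fcer1g (ENSMUSG00000058715.11, chr1:171229572-171234365, minus strand). Fcgr1 (ENSMUSG00000015947.10) lies at chr3:96282909-96293969 and Fcgrt (ENSMUSG00000003420.8) at chr7:45092990-45103851, both on the minus strand. An antisense gene overlaps Fcgr2b (Gm38204) and Fcgrt (Gm45669), and it is not stated whether the counting used strand.

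The coding sequences of Fcgr2b and Fcgr3 are close copies over part of their length, which is shown because a read inside a shared stretch fits both genes. Over 785 aligned bases, 87.1% were identical, and the longest run without a difference was 129 bases, starting at coding base 278 of Fcgr2b and 263 of Fcgr3. In the other pairs of the 4 Fcγ receptors, identity was between 64.0% and 68.7% and the longest shared run was 14 bases. No stretch of 150 bases, the read length of the study, was shared exactly between a transcript of any member and a transcript of another gene. The split of reads between Fcgr2b and Fcgr3 in the authors' counting remains uncertain for shorter matches.
Fcgr2b and Fcgr3 shared run: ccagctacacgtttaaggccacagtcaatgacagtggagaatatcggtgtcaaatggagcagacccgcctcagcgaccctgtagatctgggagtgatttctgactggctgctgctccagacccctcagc

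The 250 bases before the RefSeq start sites (GRCm38.p6) were searched on both strands for letters bound by factors known from myeloid cells. The PU.1 letters GAGGAAGT were found in 1 of the 6 members, Fcgr4, and in 2.44% of 27025 promoters. Their core AGGAAG, which lies inside the PU.1 letters and is shared by ETS factors, was found in 4 members (Fcgr1, Fcgr3, Fcgr4 and Fcer1g) and in 29.2% of promoters. The interferon-γ activated site letters TTCNNNGAA were found in 1 member, Fcgr1, and in 7.18% of promoters. The windows of Fcgr2b and Fcgrt held none of these letters, and no binding was measured. Matches are in capitals, and all stretches are written on the strand of the gene. In Fcgr1, the TTCNNNGAA match begins 109 bases before the start site, and 2 AGGAAG matches on the opposite strand overlap. In Fcgr4, the PU.1 match begins 24 bases before it, and in Fcer1g the AGGAAG match begins 44 bases before it.
Fcgr1, chr3:96293970-96294219: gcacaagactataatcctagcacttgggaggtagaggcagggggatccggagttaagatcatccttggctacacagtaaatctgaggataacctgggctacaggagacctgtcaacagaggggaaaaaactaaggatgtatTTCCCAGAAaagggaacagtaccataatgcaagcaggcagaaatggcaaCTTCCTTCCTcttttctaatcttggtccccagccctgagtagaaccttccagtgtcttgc
Fcgr4, chr1:171018892-171018919: aaggctatttACTTCCTCtcttctagtc
Fcer1g, chr1:171234378-171234403: tctgtagtacAGGAAGgggaaggggc

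The deposited values are FPKM, a fragment count scaled to the length of the transcript and to the size of the library, that had also been adjusted gene by gene in 4 sets. By the number in their titles, these sets hold samples 1–3, 4–6, 7–9 and 10–12, each with 3 ANG II and 3 control ventricles. The sets were found from exact ties between samples and are not in the labels. Of all values, 0.766% were negative, but no member had one. Fragment totals are not given, so the precision of a low FPKM is unknown. Control samples 4 to 6 stand apart, since the mean log2 level of 8 fibroblast markers was 2.81 there and between 5.55 and 5.72 in the other control sets. The presence of heart muscle was checked on 10 cardiomyocyte genes, whose summed FPKM was at least 39253 in every sample. No atrial tissue was compared, so the ventricular part of the label was not tested.

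Of the 6 members, 5 rose with ANG II at an adjusted p under 0.05 (limma on log2(FPKM + 1), Benjamini-Hochberg over the 14026 genes tested), and Fcgrt did not pass. Among all genes tested, 33.5% passed by this rule, with 20.9% rising and 12.6% falling. The same 5 members also passed the study's criterion for differentially expressed genes (DEGs), which asks for an absolute log2 fold change over 0.5 as well. It was met by 5.92% of all genes tested, 4.52% in the upward and 1.4% in the downward direction. The share of rising genes among all calls depended on scaling, being 62.3% as deposited, 51.9% after median-ratio scaling and 39.6% after quantile normalization, while the median change over all genes was 0.05, 0.02 and -0.02 on the log2 scale. The 5 members kept their direction and their call under both.

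Fcgr3, the low-affinity activating receptor for IgG, doubled. Its FPKM was 11.6 at the lowest, 15.2 at the median and 22.9 at the highest in the control group, and 22.8, 30.2 and 50.5 in the hypertensive-LVH group. The groups touched at a single point, since the lowest of the ANG II samples lay just under the highest of the controls and the other 11 lay above it. The means were 33.1 ± 9.06 and 16.3 ± 3.85 (SD, n = 12 each), a log2 fold change of 0.97 ± 0.13 (SE, limma adjusted p = 8.47e-06). The study had selected Fcgr3 on samples of this series, so its rise here is not independent evidence.

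Fcgr2b, the inhibitory receptor, rose by nearly the same amount. In the control group its FPKM ran from 5.17 through a median of 12.1 to 16.2, and in the hypertensive-LVH group from 12.0 through 21.4 to 40.5. All ANG II samples but 1 lay above every control. The means were 23.7 ± 7.93 and 11.8 ± 3.34 (SD, n = 12 each), with a log2 fold change of 0.93 ± 0.17 (SE, limma adjusted p = 2.15e-04).

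Fcgr4, an activating receptor of intermediate affinity, had the largest fold change of the 6 and a low level. The control samples ran from 0.706 through a median of 1.498 to 3.59 FPKM, and the ANG II samples from 2.70 through 4.39 to 12.1 FPKM. Every ANG II sample was above the control median, and 8 of 12 were above every control. The mean was 5.49 ± 3.02 with ANG II and 1.78 ± 1.09 in controls (SD, n = 12 each), which is 3.08 times higher, and the log2 fold change was 1.21 ± 0.22 (SE, limma adjusted p = 2.32e-04). Control samples 4 to 9 lay between 0.706 and 1.02 FPKM, while the other 6 controls lay between 1.97 and 3.59 FPKM.

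Fcgr1, the high-affinity receptor for IgG, rose less evenly. Its control values ran from 0.831 through 2.32 to 3.34 FPKM and its ANG II values from 1.86 through 3.55 to 8.78 FPKM. The groups overlapped widely, with 7 of 12 ANG II samples above every control. The mean was 4.06 ± 2.00 against 2.17 ± 0.929 (SD, n = 12 each), and the log2 fold change was 0.65 ± 0.19 (SE, limma adjusted p = 0.0102). This call rested on 2 of the sets of samples. It was lost without samples 4 to 6 of each group (log2 fold change 0.43, limma adjusted p = 0.155) and without samples 7 to 9 (0.44, limma adjusted p = 0.0736).

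Fcer1g, the signalling chain shared by the activating receptors, rose together with them. Its FPKM ran from 18.6 through 24.6 to 40.9 in controls and from 28.8 through 44.6 to 81.0 with ANG II. Every ANG II sample was above the control median and 8 of 12 were above every control. The mean was 48.9 ± 17.6 against 26.3 ± 7.31 (SD, n = 12 each), a log2 fold change of 0.84 ± 0.17 (SE, limma adjusted p = 5.12e-04).

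Fcgrt, the heavy chain of FcRn, had the highest mean level of the members and overlapped between the groups almost fully. Its FPKM ran from 44.8 through 59.4 to 71.0 in controls and from 46.2 through 61.0 to 76.5 with ANG II. The mean was 61.5 ± 7.75 with ANG II and 59.8 ± 7.23 in controls (SD, n = 12 each). The log2 difference of 0.04 ± 0.07 (SE, limma adjusted p = 0.692) was within the spread of the samples, and its sign depended on the scaling, being -0.01 after median-ratio scaling.

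**Figure D1:**
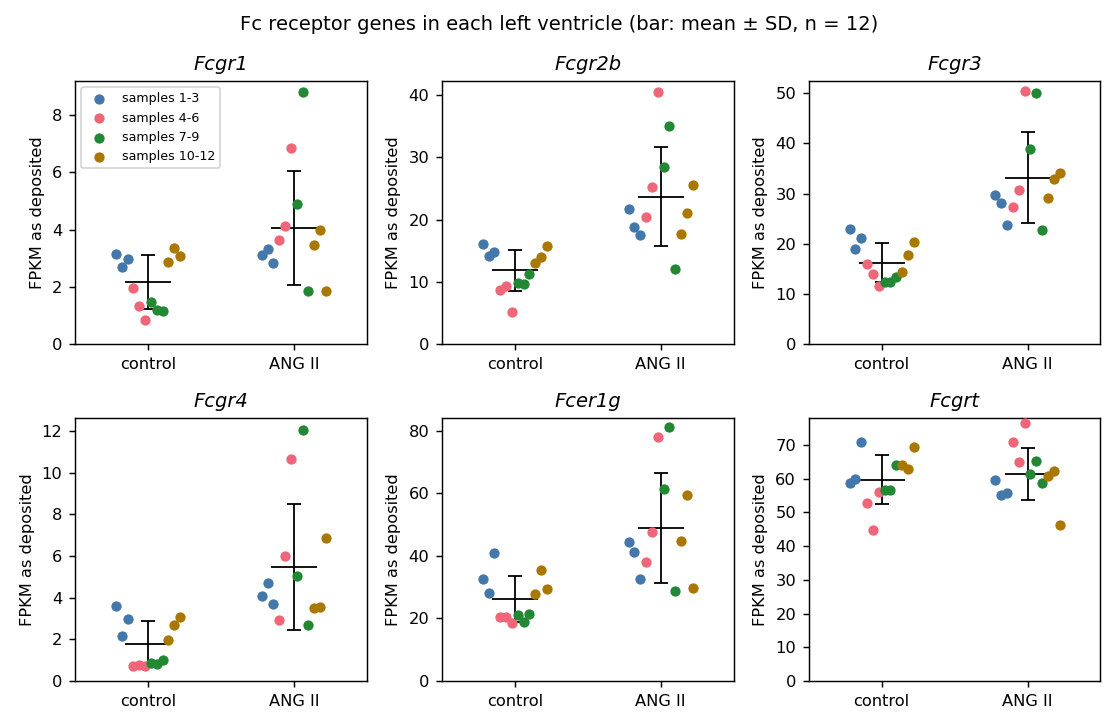
FPKM as deposited of each member (vertical axes, starting at 0) in the 12 control and 12 ANG II left ventricles; each point is 1 sample, coloured by its set of samples, and the bar with whiskers is the mean ± SD. ANG II samples of Fcgr3 lie between 22.8 and 50.5 against 11.6 to 22.9 in controls, whereas the values of Fcgrt lie between 44.8 and 76.5 in both groups.

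Single samples moved in all of the rising members at once. ANG II samples 6 and 8 held the highest 2 values of the group for each of the 5 rising members, and ANG II sample 9 held the lowest for each of them. Control sample 6 was the lowest control for 4 of the 5. The summed FPKM of 17 macrophage markers followed in part, being 1163 and 1109 in ANG II samples 6 and 8, the highest 2 of the group, and 444 in ANG II sample 9.

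ANG II sample 12 separated the members. It had the lowest macrophage sum of its group (426) and ranked 11th of 12 for Fcgr1 (1.87 FPKM) and Fcer1g (29.9 FPKM) and lowest for Fcgrt (46.2 FPKM). In the same sample Fcgr4 had the rank 3 from the top (6.88 FPKM), and Fcgr2b (25.5 FPKM) and Fcgr3 (34.1 FPKM) both had the rank 4. This sample was picked out after its values had been seen.

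Within the 4 sets, each of 3 ANG II and 3 control samples, the rise of the receptors was uneven in size. For Fcgr3 the log2 differences were 0.36, 1.29, 1.41 and 0.84 in samples 1 to 3, 4 to 6, 7 to 9 and 10 to 12. For Fcgr4 they were 0.41, 1.98, 1.81 and 0.62. In the same order, those of Fcgr2b were 0.34, 1.74, 1.09 and 0.55. In these 3 genes, every ANG II sample was above every control of its set in all 4 sets, which held for 0.677% of all genes tested. Not one of the 6 members separated the 2 whole groups, as 0.271% of all genes did in the upward direction. The low-difference sets were samples 1 to 3 and 10 to 12, and the high-difference sets were samples 4 to 6 and 7 to 9.

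Fcer1g had the same high and low sets, with log2 differences of 0.22, 1.35, 1.32 and 0.47. The differences of Fcgr1 were 0.06, 1.30, 1.26 and -0.03, so that its difference lay in 2 of the sets. Fcgrt differed by -0.15, 0.46, 0.06 and -0.22, lower with ANG II in 2 sets and higher in the other 2. A test of whether the group difference varied between the sets (limma, set-by-group interaction, chosen after the data were seen) passed for Fcgrt (adjusted p = 0.0256) and for 7.49% of all genes tested. It did not pass for the other 5 members, whose adjusted p lay between 0.0549 and 0.131, although a pseudocount of 0.1 instead of 1 made it pass for Fcgr1 (limma adjusted p = 0.0391) and Fcgr4 (limma adjusted p = 0.0254). Comparing 3 samples with 3 cannot reach an exact permutation p below 0.10, so no test was made within a single set.

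**Figure D2:**
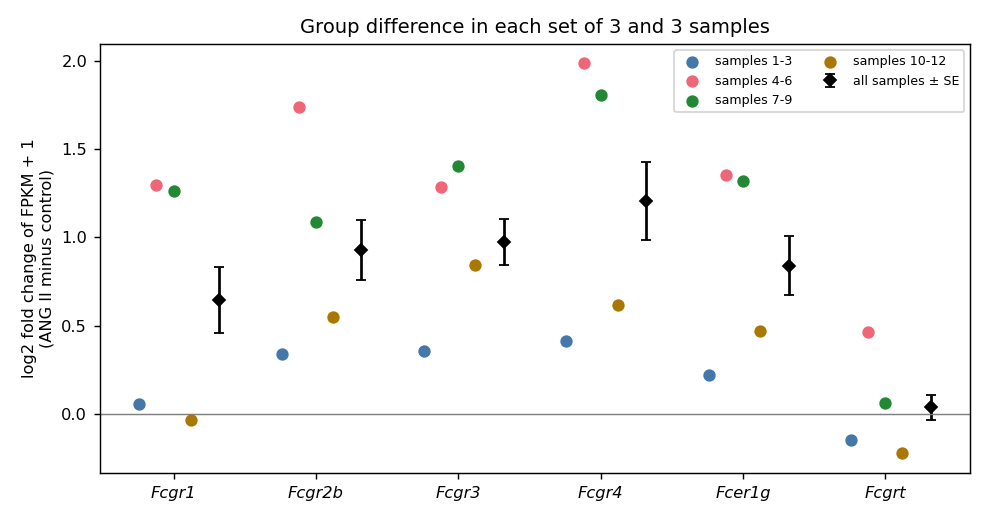
Log2 fold change of FPKM + 1, ANG II minus control (vertical axis), for each member in each set of 3 ANG II and 3 control samples (coloured points) and over all 24 samples (black diamonds, ± SE). Samples 4 to 6 and 7 to 9 lie highest for the 5 rising members, at 1.09 to 1.98, while Fcgrt lies on both sides of 0.

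The differences were also computed from FPKM before the adjustment, which the spacing of the deposited values gave for all 6 members within each set. This assumed an adjustment made of a group term and of a scale and a shift for each set. For Fcgr3 the ANG II samples were higher by 3.52, 22.98, 25.2 and 15.6 FPKM in the 4 sets (mean 16.8, exact permutation within the sets, two-sided p = 3.75e-05). The mean differences were 12.2 FPKM for Fcgr2b (exact permutation p = 2.5e-05), 3.86 for Fcgr4 (p = 2.5e-05), 23.6 for Fcer1g (p = 7.88e-04) and 1.91 for Fcgr1 (p = 0.0109). Fcgr2b, Fcgr3, Fcgr4 and Fcer1g were higher in all 4 sets and Fcgr1 in 3 of 4. For Fcgr1 the differences were -0.18, 3.37, 4.24 and 0.21 FPKM, against 0.16, 3.50, 3.89 and 0.0065 as deposited, so samples 1 to 3 changed sign. Before the adjustment, the ANG II samples were above all controls in 3 sets for Fcgr2b, Fcgr3 and Fcgr4, 1 set fewer than after it, and the share of all genes was not computed for those values. For Fcgrt the differences were -8.50, 20.4, 3.98 and -11.3 FPKM (mean 1.15, exact permutation p = 0.757). Under this assumed form, the adjustment had used the groups, and the tests on deposited values do not account for that.

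FPKM is per length, so the members were ranked within a sample by their deposited values. The gene-by-gene adjustment moved each gene within a set, and the order of levels before it could not be recovered. The order Fcgrt, Fcer1g, Fcgr3, Fcgr2b, Fcgr1, Fcgr4 from high to low was seen in 12 samples, and the same order with Fcgr4 above Fcgr1 in 8. The last 2 places changed with the group, since Fcgr1 was above Fcgr4 in 10 of 12 controls and in 2 of 12 ANG II samples. Fcgr3 was above Fcgr2b, and Fcgr2b above both Fcgr1 and Fcgr4, in all 24 samples. Fcer1g was above Fcgrt in 3 ANG II samples and in no control.

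Within the sum of the 4 Fcγ receptors, Fcgr3 made up 50.6% ± 3.32 with ANG II and 51.5% ± 5.04 in controls (SD, n = 12 each). The inhibitory Fcgr2b made up 35.5% ± 2.42 and 36.9% ± 3.86. Fcgr4 made up 7.90% ± 1.89 and 5.12% ± 1.92, and Fcgr1 5.96% ± 1.32 and 6.53% ± 1.54. The large shares thus differed by less than their SD between the groups.

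Whether members changed by different amounts was tested on the within-sample difference of log2(FPKM + 1), for 15 pairs (two-sided permutation test, adjusted over the pairs), and 11 pairs passed. All 5 pairs with Fcgrt did, for example Fcgr3 minus Fcgrt, which was 0.93 ± 0.12 higher with ANG II (SE, permutation adjusted p = 7.5e-05). Fcgr1 rose less than Fcgr4, with a difference of -0.56 ± 0.15 (SE, permutation adjusted p = 5.1e-04), and 11 of the 12 ANG II samples lay below the control median. With log2(FPKM + 1), low genes such as these have compressed fold changes, and with a pseudocount of 0.1 the pairs of Fcgr1 with Fcgr2b, Fcgr3 and Fcer1g no longer passed.

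The inhibitory and the low-affinity activating receptor did not pass a test of unequal change. Fcgr2b minus Fcgr3 differed by -0.04 ± 0.09 (SE, permutation adjusted p = 0.621). Without samples 4 to 6, however, Fcgr2b rose less than Fcgr3 by -0.21 ± 0.06 (permutation adjusted p = 0.0051). Fcgr3 against Fcer1g (0.13 ± 0.09, permutation adjusted p = 0.196), Fcgr2b against Fcer1g (0.09 ± 0.11, permutation adjusted p = 0.495) and Fcgr3 against Fcgr4 (-0.23 ± 0.13, permutation adjusted p = 0.103) did not pass either. The last of these pairs passed with a pseudocount of 0.1, where Fcgr3 rose less than Fcgr4 by -0.64 ± 0.21 (SE, permutation adjusted p = 0.01003).

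Markers of macrophages, which carry Fcγ receptors, rose at the same time. Of 17 markers, 14 rose and 1, Timd4, fell (log2 fold change -0.45), and their median log2 fold change was 0.52. The summed FPKM of the list ran from 426 to 1163 (median 697) with ANG II and from 312 to 662 (median 440) in controls, and none of its genes was left out by the filter. The largest changes were those of the lysosomal protein gene Cd68 (0.92), the integrin gene Itgam (0.84) and the lysozyme gene Lyz2 (0.75). Without samples 4 to 6, 4 of the 17 rose and 1 fell, and the calls of Cd68 and Lyz2 were among those lost. The part of cell numbers in the rise of the Fc receptors was not tested.

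Set against the mean of these 17 markers within each sample, 4 members rose by more and Fcgrt by less (6 two-sided permutation tests, adjusted over the 6). The excess was 0.73 ± 0.16 for Fcgr4 (permutation adjusted p = 1.65e-04), 0.50 ± 0.07 for Fcgr3 (3e-05), 0.45 ± 0.09 for Fcgr2b (3e-05) and 0.37 ± 0.08 for Fcer1g (2.16e-04), each ± SE on the log2 scale. All 12 ANG II samples were above the control median for each of these 4 members. Fcgr1 differed from the markers by 0.17 ± 0.10 (permutation adjusted p = 0.0909), and Fcgrt by -0.44 ± 0.09 (permutation adjusted p = 1.65e-04). The excess depends on the make-up of the list, in which Timd4 (-0.45) and Folr2 (-0.21) had negative log2 fold changes and 15 markers positive ones. Outside the list, Trem2 (1.52) and Ctss (1.33) changed more than any member, and Tyrobp (0.82) less than Fcer1g, so a larger change was not particular to the members. In each of the 4 sets the excess of Fcgr2b, Fcgr3, Fcgr4 and Fcer1g was above 0 and that of Fcgrt below 0. For Fcgr3 it was 0.27, 0.26, 0.80 and 0.65 in the order of the sets. Over all 24 samples, Fcgr2b, Fcgr3 and Fcgr4 each had a larger log2 fold change than any of the 17 markers. For Fcgr2b and Fcgr3 the margin over Cd68 was smaller than the SE (0.93 ± 0.17 and 0.97 ± 0.13 against 0.92 ± 0.22). Without samples 4 to 6 of each group Fcgr2b (0.66) lay below Cd68 (0.76), while Fcgr3 (0.87) stayed above it.

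**Figure D3:**
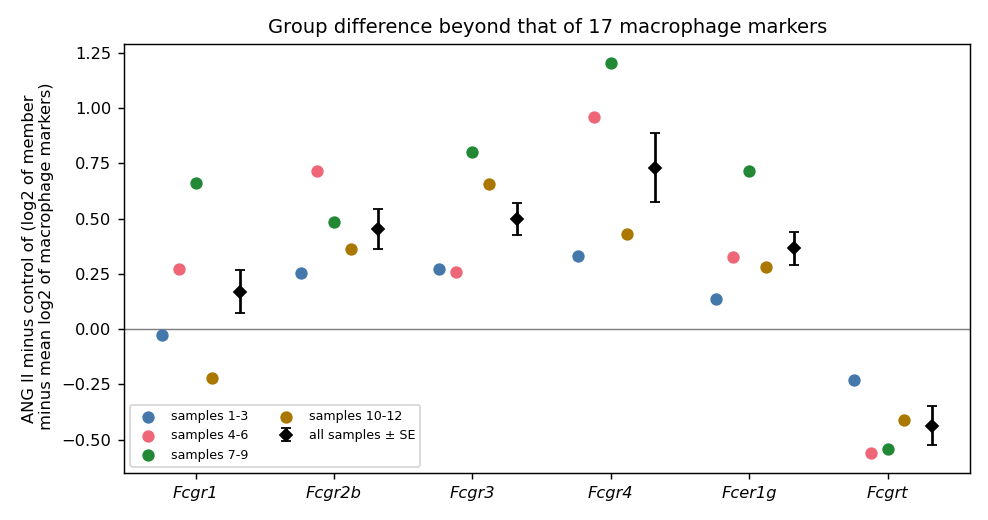
Group difference of each member beyond that of the macrophage markers: ANG II minus control of the member's log2(FPKM + 1) minus the mean log2(FPKM + 1) of 17 markers (vertical axis), in each set (coloured points) and over all 24 samples (black diamonds, ± SE). In these deposited values, Fcgr2b, Fcgr3, Fcgr4 and Fcer1g lie above 0 and Fcgrt lies below 0 in all 4 sets, whereas Fcgr1 lies on both sides.

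Marker lists of other leukocytes had lower summed levels than that of macrophages in every sample. The lists differ in length and in the level of their genes, so the sums do not give relative cell numbers. Among all genes tested, 20.9% rose and 12.6% fell. The rising share was below this for neutrophil (12.5%), mast cell (16.7%), B cell (14.3%), NK cell (0%) and endothelial markers (16.7%). It was 25% for T cell markers. Of the tested markers, 4 of 8 rose for monocytes (Ccr2, Plac8 and Vcan leading), 5 of 8 for dendritic cells (Itgax, Cd209a and Flt3), 2 of 8 for T cells (Lck and Cd3g), 1 of 8 for neutrophils (Csf3r) and 1 of 6 for mast cells (Hdc). Without samples 4 to 6 of each group, none rose for monocytes, T cells and neutrophils, 3 for dendritic cells and 1 for mast cells. In NK cells none of 4 passed, and in B cells 1 of 7 rose (Cd22) and 1 fell (Cd79a). In B cells, none rose and 1 fell when samples 4 to 6 were left out. Among all genes, 1177 rose and 1633 fell in that setting. The summed FPKM of the neutrophil list lay between 3.15 and 28.5 with ANG II and between 5.58 and 55.5 in controls, and that of the NK cell list was at most 4.29 in any sample. Among structural cells, 2 of 12 endothelial markers rose (Pecam1 and Erg) and 1 fell (Kdr), 4 of 8 fibroblast markers rose (Col1a1, Col1a2 and Mfap5 leading) and 5 of 10 cardiomyocyte genes fell (Tnni3, Mb and Myl2 leading). With samples 4 to 6 of each group left out, 2 of 8 fibroblast markers rose and the median log2 change of the list was 0.17 in place of 0.77. In the same setting 1 endothelial marker rose and 1 fell, and 1 cardiomyocyte gene rose and 4 fell. After quantile normalization of all samples, 1 cardiomyocyte gene rose and 2 fell. Red blood cell genes rose in 5 of 7 (Hba-a2, Hba-a1 and Hbb-bt leading), with a summed FPKM of 780 to 6446 against 92.3 to 2950, and the part of retained blood was not tested.

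Of 7 other Fc and Fc-like receptors tested, Fcrls, a scavenger-like Fc receptor homologue of macrophages and microglia, rose (12.3 ± 4.46 against 6.22 ± 2.51 FPKM, SD, n = 12 each; log2 fold change 0.90, limma adjusted p = 0.00331). This call was lost without samples 4 to 6 of each group (0.53, limma adjusted p = 0.0882). The receptors for IgM and IgE (Fcmr and Fcer2a) stayed under 0.4 FPKM on average in both groups, and Trim21, the cytosolic antibody receptor, was 3.76 against 3.59 FPKM. Of 16 ligand genes (immunoglobulin chains and pentraxins), 2 could be tested, the joining chain Jchain and the pentraxin Ptx3, and neither passed, so antibody transcripts are not described. Ptx3 rose by 0.61 when samples 4 to 6 were left out (limma adjusted p = 0.00638).

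A list of adaptors other than Fcer1g (Tyrobp, Cd247 and Hcst) and of receptors that signal through Fcer1g or such adaptors rose in part. Of 11 tested, 7 rose and none fell, and the median log2 change was 0.37, against 0.05 over all genes. After quantile normalization 6 rose and 3 fell. Trem2, a lipid receptor gene whose product signals through the adaptor Tyrobp (1.52), and the C-type lectin genes Clec4n (1.20) and Clec4d (1.12) had the largest log2 fold changes. Tyrobp, the other ITAM adaptor of myeloid cells, had 33.4 ± 14.0 against 18.0 ± 6.81 FPKM (SD, n = 12 each; limma adjusted p = 0.00531). When samples 4 to 6 were left out, 5 genes of the list rose and 1 fell, and the calls of Trem2 (limma adjusted p = 0.0543) and Tyrobp (limma adjusted p = 0.099) were lost.

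Downstream of the activating receptors, 25 of 40 signalling genes rose and 1 fell, and the median log2 change was 0.27. Among all genes tested, 20.9% rose and 12.6% fell. After quantile normalization 19 signalling genes rose and 3 fell. Arpc1b of the actin-nucleating Arp2/3 complex (0.61) and the small GTPase gene Rac2 (0.58) were among those that rose most. Syk, the kinase that binds phosphorylated ITAMs, rose by 0.22 (limma adjusted p = 0.0282) and Plcg2 by 0.53 (limma adjusted p = 6.32e-05). Gsn, the actin-severing gelsolin, fell by 0.49 on the log2 scale and is abundant in this tissue (458 against 639 FPKM). Without samples 4 to 6, 7 rose and 1 fell, and the calls of Rac2 (limma adjusted p = 0.125) and Syk (limma adjusted p = 0.0545) were among those lost. In that setting 1177 of all genes rose and 1633 fell.

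On the inhibitory side, 8 of 12 genes rose and 2 fell, and the median log2 change was 0.39. After quantile normalization 7 rose and 2 fell. The adaptor genes Dok1 (0.97) and Dok3 (0.74) and the ITIM receptor gene Lilrb4a (0.89) changed most. Inpp5d, which encodes the lipid phosphatase SHIP1 recruited by the ITIM of Fcgr2b, rose by 0.57 (7.82 ± 1.81 against 4.87 ± 0.611 FPKM, SD, n = 12 each; limma adjusted p = 7.64e-05). Its relative Inppl1 fell by 0.19 and Dok2 fell by 0.35 on the log2 scale. Without samples 4 to 6, 6 rose and none fell.

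Among genes of the phagocyte NADPH oxidase, which produces superoxide after receptor engagement, the cytosolic subunits Ncf1 (0.85) and Ncf4 (0.69) rose. The membrane subunits Cybb (0.23, limma adjusted p = 0.163) and Cyba (0.26, limma adjusted p = 0.0781) did not pass. The call of Ncf4 was lost without samples 4 to 6 (limma adjusted p = 0.0647). B2m, the light chain of FcRn, rose although Fcgrt did not pass. Its FPKM ran from 365 through 446 to 533 in controls and from 482 through 594 to 895 with ANG II (log2 fold change 0.51 ± 0.10, SE, limma adjusted p = 4.49e-04). B2m also serves the class I molecules, of which H2-T23 (0.37), H2-D1 (0.36) and Mr1 (0.32) rose, so that 4 of the 7 genes of this list rose and none fell. After quantile normalization 4 rose and 1 fell, and without samples 4 to 6, 1 (B2m) rose and 1 fell.

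The members varied together across the samples of a group. With group means taken out, Pearson's r between the 5 rising members lay between 0.77 and 0.93 over the 24 samples, and their r with Fcgrt lay between 0.44 and 0.66. With set means taken out as well, r was 0.94 for Fcgr2b with Fcgr3, 0.90 for Fcgr1 with Fcer1g and 0.60 for Fcgr4 with Fcer1g, while Fcgrt had 0.03 with Fcgr2b and 0.04 with Fcgr4. All values come from the same libraries, so shared depth and cell content enter every r, and they are given as a description. The part of reads that fit both Fcgr2b and Fcgr3 in the r of this pair was not tested.

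**Figure D4:**
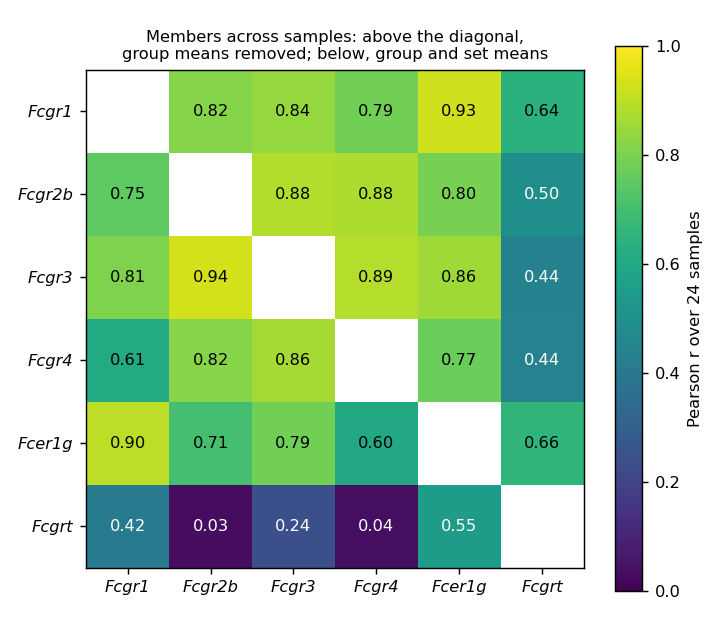
Pearson's r between members over 24 samples, with the group mean removed from log2(FPKM + 1) (above the diagonal) and with the means of group and set removed (below). The 5 rising members range from 0.77 to 0.93 among themselves above the diagonal, and the row and column of Fcgrt hold the lowest values.

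Among 11457 genes averaging 1 FPKM or more, those most like each member were chosen by r with the group mean removed (n = 24). For Fcgr1 they included the complement receptor gene C3ar1 (0.97) and Spi1 (0.94). For Fcer1g they were the complement genes C1qb (0.96) and C1qa (0.95) and again Spi1 (0.96). Spi1 encodes PU.1, a transcription factor of myeloid cells whose letters are shown for Fcgr4, and it ran from 5.13 through 7.30 to 10.9 FPKM in controls and from 7.51 through 10.4 to 20.0 FPKM with ANG II (log2 fold change 0.58 ± 0.16, SE, limma adjusted p = 0.00806). Its call was lost without samples 4 to 6 (0.43, limma adjusted p = 0.111), as were those of C3ar1, C1qa and C1qb. Its r was 0.85 with Fcgr3, 0.80 with Fcgr2b, 0.79 with Fcgr4 and 0.61 with Fcgrt.

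For Fcgr2b the nearest genes were the cytokine receptor gene Csf2rb (0.94), Dpep2 (0.93) and Pik3r5 (0.93). For Fcgr3 they were the leukocyte tetraspanin gene Cd53 (0.93), the phospholipase gene Pla2g7 (0.93) and Lilrb4a (0.92). For Fcgr4 they were the protease gene Ctss (0.94), Dpep2 (0.92) and Pla2g7 (0.90). These genes of Fcgr2b, Fcgr3 and Fcgr4 also rose with ANG II, with and without samples 4 to 6. The genes most like Fcgrt were Pomk (0.90), Coro1b (0.89) and Rnf130 (0.89), none of which passed the test between the groups, although Pomk fell without samples 4 to 6 (-0.35, limma adjusted p = 0.0104).

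Some of the nearest genes of the table on either side of the members were also tested. At the Fcγ receptors of chromosome 1, the neighbours Fcrla (limma adjusted p = 0.424) and Cfap126 (limma adjusted p = 0.086) did not pass, and neither did Apoa2 beside Fcer1g (limma adjusted p = 0.624). Next to Fcgrt, Rcn3 at a distance of 769 bases rose by 1.03 (limma adjusted p = 0.00536), a call lost without samples 4 to 6 (0.46, limma adjusted p = 0.152). Near Fcgr1, Hist2h4 did not pass (limma adjusted p = 0.107) unless samples 4 to 6 were left out (-0.19, limma adjusted p = 0.0412), and BC107364 was too low to be tested.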

How the data were processed

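RNA was enriched with oligo(dT) and sequenced in reads of 150 bases. Per the labels, HISAT, Bowtie2 and RSEM were used by the submitters, and their versions, the genome build and the annotation are not given in the sources used here. The authors deposited FPKM values that had been adjusted in 4 sets of samples, a step not named in their methods, so the values are no longer plain FPKM. Negative values were set to 0, log2(FPKM + 1) was taken, and limma 3.58.1 (R 4.3.3, intensity trend, Benjamini-Hochberg) was run on the 14026 genes averaging 0.1 or more. Permutation tests used 100000 resamples, whose smallest p is 1e-05, or all 160000 relabelings within the sets, and were two-sided. FPKM before the adjustment was recovered from the spacing of the values in steps of 1 hundredth, a procedure chosen after the data were seen. On data simulated from the same assumed form of the adjustment, 194 of 200 genes were recovered and 0 were wrong. That simulation cannot show whether the deposited values follow this form. Python 3.11.15 with numpy 2.4.6 and pandas 2.3.3 was used.

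The members and gene lists were chosen with earlier results of these data known. Named genes are the members, up to 3 called genes of each list with the largest change and up to 2 that went against it, the 3 genes most like each member, its neighbours, B2m and Spi1, and some genes that this rule selects are not reported here. Syk, Plcg2, Inpp5d, Tyrobp, Mr1, Cybb, Cyba, Trim21, Fcmr, Fcer2a, Jchain and Ptx3 were added after their values were seen. The alternatives were another pseudocount, filter, scaling or variance model, the replicate number or the set as a term, permutation tests, and leaving out single samples or sets. The labels number the samples as separate left ventricles, and p-values measure the spread between them.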

Additional observations from a re-analysis of the deposited data

How the results depend on the processing

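The log2 fold changes of Fcgr2b, Fcgr3, Fcgr4 and Fcer1g kept their direction and call under all 39 alternatives, and those of Fcgr1 under 37 of 39. Leaving out samples 4 to 6 of each group gave 0.43 for Fcgr1 and turned Fcgrt to -0.10, which did not pass (limma adjusted p = 0.252). It also lowered the count of all genes past the adjusted p from 4697 to 2810, that of DEGs from 831 to 553 and that of the signalling list from 26 to 8, with fewer samples in the fit. Of these 2810 genes, 1177 rose and 1633 fell. Leaving out samples 7 to 9, added after the data were seen, gave 0.44 for Fcgr1 and 16 signalling genes. Median-ratio scaling gave -0.0086 for Fcgrt. With 0.1 added before the logarithm, 1489 genes were DEGs and Fcgr1 exceeded the macrophage markers by 0.36 (permutation adjusted p = 0.0252), and Fcgr1 minus Fcer1g turned to 0.0045. Fcgr2b minus Fcer1g turned to -0.0109 without samples 4 to 6. Between 9 and 11 of the 15 pairs passed in each alternative. 

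Leaving out single samples changed no call of the members. The log2 fold changes ranged from 0.55 to 0.71 for Fcgr1, 0.84 to 1.01 for Fcgr2b, 0.92 to 1.02 for Fcgr3, 1.10 to 1.28 for Fcgr4, 0.77 to 0.90 for Fcer1g and 0.0029 to 0.075 for Fcgrt. The counts ranged from 4038 to 5160 for all genes, 715 to 979 for DEGs and 21 to 28 for the signalling list. With the replicate number as a replicate block, 2824 genes and 13 signalling genes passed, and the members kept their calls (Fcgr1 limma adjusted p = 0.0495). The labels do not say that the numbers pair the samples. Of 12 same-numbered pairs, 0 had a correlation over 0.1, and 1 of 12 did with set means removed (highest r 0.289). Correlations of values that had been adjusted cannot exclude a pairing. The unknown number of fragments limits what can be said of low genes such as Fcgr1 and Fcgr4.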
